A study of Ophiorrhiza pumila with 6 samples.

Results

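GRAS proteins are plant-specific transcriptional regulators that share a conserved C-terminal domain. The family holds the DELLA proteins, which restrain growth until gibberellin triggers their breakdown through the GID1 receptor, and SHORT-ROOT and SCARECROW, which pattern the endodermis and the stem cell niche of the root in Arabidopsis. Other branches, known mostly by SCARECROW-LIKE (SCL) numbers, act in light signalling, stress and detoxification, and meristem maintenance. In the *de novo* assembly of *Ophiorrhiza pumila* the family was taken as every contig whose deposited description names SCARECROW, GRAS, DELLA, SHORT-ROOT or a chitin-inducible gibberellin-responsive protein. This gave 73 contigs of 53 assembly genes, out of 59855 contigs of 47425 assembly genes.

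RNA of hairy roots at 3 weeks of age was sequenced in 6 lines, 2 for each RNAi construct. ERF2i-2 and ERF2i-3 carried a construct against *OpERF2*, ERF1i-7 and ERF1i-19 one against *OpERF1*, and GUSi-9 and GUSi-10, the controls, one against the bacterial β-glucuronidase gene. Both *OpERF* genes encode AP2/ERF transcription factors, and all 6 lines are roots induced by *Agrobacterium rhizogenes* that express a hairpin from the 35S promoter, which is active in most cell types. Each line is 1 clone from a separate transformation and gave 1 library. All comparisons therefore rest on n = 2 lines a construct, and p-values measure only the spread between lines. Within a construct, values are listed in this order of lines.

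Libraries held 11517610 to 13199946 expected counts, of which 0.230% to 0.307% fell on GRAS contigs. The targeted gene *OpERF1* (c15284_g1_i1) had 3.46 and 18.9 FPKM (fragments scaled to contig length and library size) in ERF1i and 698 and 584 FPKM in ERF2i, against 206 and 134 FPKM in GUSi. *OpERF2* (c17706_g2_i1) had 3.29 and 14.8 FPKM in ERF2i, against 15.2 and 8.33 FPKM in GUSi, so ERF2i-3 lay within the range of the controls in these libraries, and the name ERF2i stands for the labelled construct; the qRT-PCR of the study, which measured the target separately, was not analysed here. The 2 ERF2i libraries are numbered here by their sample titles, whereas the names of the deposited tables carry the opposite clone number; both belong to the same group, so no test between constructs depends on it. A rolB contig of the root-inducing T-DNA (c30113_g1_i1) was present in every library, at 24.3 to 58.6 FPKM. Mannopine synthase (c25644_g1_i1), the other contig of the T-DNA list, had 511 and 262 FPKM in ERF2i, 0.16 and 0.00 FPKM in ERF1i and 145 and 136 FPKM in GUSi. Contigs of shoot organ polarity and epidermis (YABBY and protodermal factors) summed to 29.95 and 115 FPKM in ERF1i, against 5.37 and 3.35 FPKM in GUSi, and 4 of 5 rose in ERF1i. Of 34 tested green tissue contigs 8 rose in ERF1i against GUSi (23.5%, beside 2.65% of all contigs tested), and 4 rose in ERF2i against GUSi (11.8%, beside 13.2% of all contigs tested) and 1 fell. The list summed to 302 and 375 FPKM in ERF1i, 137 and 198 FPKM in ERF2i and 167 and 159 FPKM in GUSi. The part of these differences between lines in the GRAS results was not tested.

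The family was expressed unevenly. Of the 73 contigs, 61 had counts in all 6 libraries, 22 had a mean of over 10 FPKM and 8 a mean under 1 FPKM. A single contig described as chitin-inducible gibberellin-responsive protein 1-like (c26275_g1_i1) made up 38.6% of the summed GRAS FPKM, and the 10 most abundant contigs together 71.0%. The rice protein of this name is known from transcripts that accumulate after chitin elicitor or gibberellin treatment, and it belongs to the PAT1 branch. The contig had 541 and 468 FPKM in ERF2i, 607 and 359 FPKM in ERF1i and 334 and 403 FPKM in GUSi. Both ERF2i lines lay above both GUSi lines, while ERF1i-7 lay above and ERF1i-19 between the 2 GUSi lines. Next in level was an SCL13-like contig (c20188_g1_i1), whose Arabidopsis relative takes part in phytochrome B signalling. It had 122 and 114 FPKM in ERF2i, 108 and 83.2 FPKM in ERF1i and 80.0 and 104 FPKM in GUSi. Neither contig passed the test in ERF2i against GUSi (log2 fold change 0.68 ± 0.25 SE with adjusted p = 0.097 for c26275_g1_i1, and 0.58 ± 0.18 SE with adjusted p = 0.057 for c20188_g1_i1, edgeR). With counts summed over assembly genes, the SCL13-like gene (c20188_g1) passed (log2 fold change 0.62 ± 0.18 SE, adjusted p = 0.048, edgeR). It has 1 contig, so summing left its own counts unchanged, and only the fit around it differed.

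**Figure D1:**
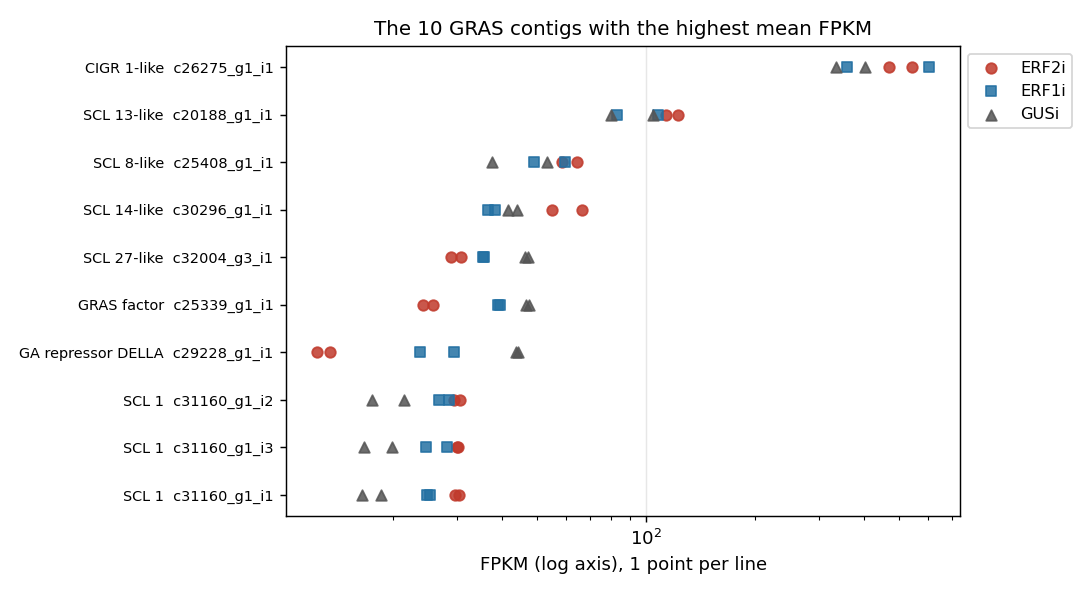
FPKM on a log axis of the 10 GRAS contigs with the highest mean over the 6 libraries, 1 point per line (circles ERF2i, squares ERF1i, triangles GUSi). The chitin-inducible gibberellin-responsive protein 1-like contig (CIGR 1-like) stands above the rest in every line, and the GA repressor DELLA contig lies at 12.3 to 13.4 FPKM in ERF2i, against 43.7 to 44.2 FPKM in GUSi.

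Tests were made with edgeR's quasi-likelihood method on expected counts, with Benjamini-Hochberg adjustment over 33315 contigs, and a contig was called at an adjusted p under 0.05. Of the 73 GRAS contigs 58 entered the test. The other 15 were short (213 to 528 bp) and had at most 11 counts in any library. They were 9 of the 17 DELLA contigs, both SCARECROW contigs, 1 of 2 SHORT-ROOT contigs, 1 of 3 SCL3 contigs and 2 of 13 contigs with no named branch. Their counts summed to 12 and 7 in ERF2i, 27 and 18 in ERF1i and 57 and 35 in GUSi.

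In ERF2i against GUSi the called GRAS contigs were mostly lower. Of the 58, 17 from 14 assembly genes fell (29.3%, beside 9.88% of all contigs tested), and 7 from 4 assembly genes rose (12.1%, beside 13.2% of all contigs tested). The share that rose was near that of all contigs. In RNA of whole roots, fewer cells of a type and less transcript per cell cannot be told apart. Both ERF2i lines lay below both GUSi lines in 32 of the 58 (34.2% of all contigs tested) and above them in 16 (34% of all contigs tested). The median log2 fold change was -0.28 over the GRAS contigs and -0.01 over all contigs tested. Without scaling beyond the total count, 5 rose and 25 fell, while the median of all contigs shifted to -0.24 and that of the GRAS contigs to -0.51, which leaves the distance between them at -0.27. With any 1 ERF2i or GUSi line left out, fewer GRAS contigs were called, and fewer of all contigs as well. The median log2 fold change over GRAS contigs was then -0.31 without ERF2i-2 and -0.38 without ERF2i-3. It was -0.16 without GUSi-9 and -0.25 without GUSi-10. Over all contigs tested it was -0.026, -0.033, -0.00038 and 0.0029 in the same order.

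**Figure D2:**
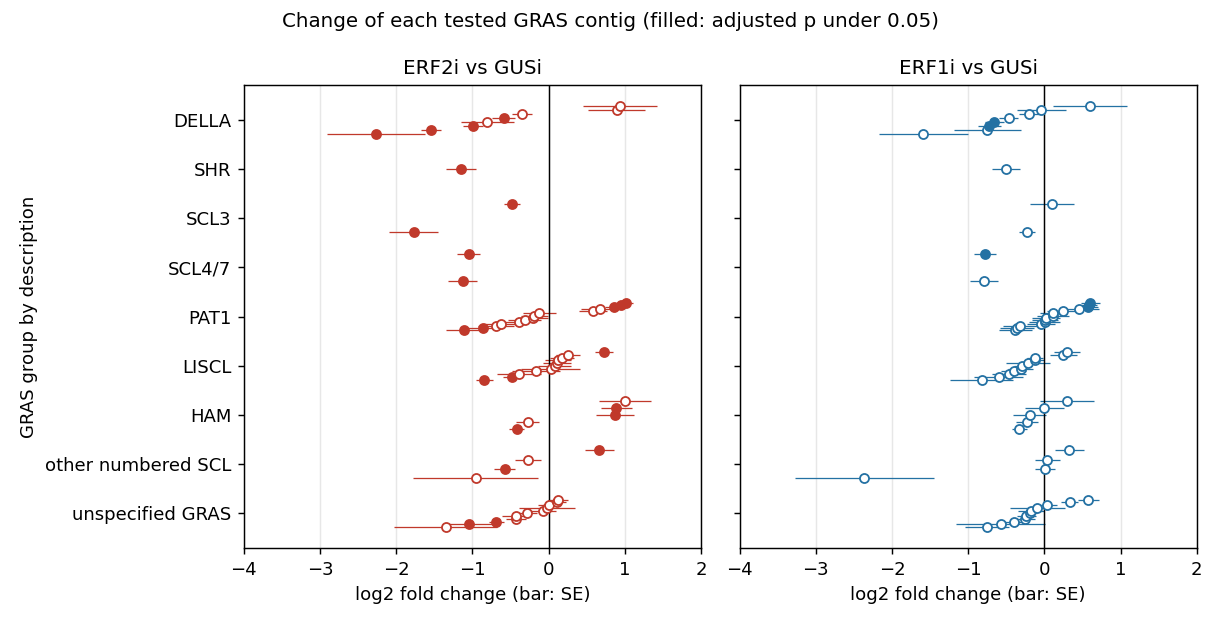
Log2 fold change of each of the 58 tested GRAS contigs by branch, in ERF2i against GUSi (left) and ERF1i against GUSi (right), with bars of 1 SE and filled points at an adjusted p under 0.05. The 2 panels share the GUSi libraries. In ERF2i all called DELLA, SHR, SCL3 and SCL4/7 points lie below 0, while the PAT1, LISCL and HAM branches hold called points on both sides.

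Of the 8 DELLA contigs that were tested, 4 fell in ERF2i against GUSi (beside 9.88% of all contigs tested). The median log2 fold change was -0.70 over the 8. One of the 8, c21693_g1_i1 (log2 fold change 0.94, not called), is described as DELLA but has a potato SCARECROW-like protein as best hit. Its companion c21693_g2_i1, described as SCARECROW, has a GAI1-like DELLA protein of grapevine as best hit. The DELLA contig with the highest level, described as GA repressor DELLA (c29228_g1_i1), had 13.4 and 12.3 FPKM in ERF2i, 29.4 and 23.7 FPKM in ERF1i and 44.2 and 43.7 FPKM in GUSi. The 3 constructs did not overlap, and the GUSi lines differed little from each other. It fell by 1.55 ± 0.13 SE on the log2 scale in ERF2i against GUSi (adjusted p = 0.00078, edgeR), which is 2.92-fold lower. In ERF1i against GUSi it fell by 0.66 ± 0.13 SE (adjusted p = 0.041), and in ERF2i against ERF1i by 0.89 ± 0.13 SE (adjusted p = 0.0061).

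The DELLA assembly gene c33137_g1 had 2 contigs. Its second contig (c33137_g1_i2) had 5.23 and 5.13 FPKM in ERF2i, 8.50 and 8.07 FPKM in ERF1i and 11.2 and 12.8 FPKM in GUSi. All ERF2i values lay below all ERF1i values, and these below all GUSi values. It fell by 0.99 ± 0.13 SE on the log2 scale in ERF2i against GUSi (adjusted p = 0.0031), and by 0.52 ± 0.13 SE in ERF2i against ERF1i (adjusted p = 0.035), a call lost in 10 of 14 refits (other tools, scalings and filters, summed assembly genes, and each library left out). The first contig (c33137_g1_i1) had 7.15 and 8.10 FPKM in ERF2i, 8.91 and 9.96 FPKM in ERF1i and 10.7 and 12.1 FPKM in GUSi, and its log2 fold change of -0.35 ± 0.13 SE in ERF2i against GUSi did not pass (adjusted p = 0.0996). Both contigs draw on shared reads, so the split between them is uncertain; summed over the assembly gene the log2 fold change was -0.58 ± 0.11 SE in ERF2i against GUSi (adjusted p = 0.013) and -0.26 ± 0.11 SE in ERF2i against ERF1i, where it did not pass (adjusted p = 0.13).

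A contig described as GAI, the DELLA protein first known from gibberellin-insensitive Arabidopsis (c19395_g1_i1), had 10.2 and 10.9 FPKM in ERF2i, 10.9 and 10.5 FPKM in ERF1i and 21.2 and 15.8 FPKM in GUSi. The lines of both *OpERF* constructs lay together and below both controls. It fell by 0.59 ± 0.15 SE on the log2 scale in ERF2i (adjusted p = 0.033) and by 0.72 ± 0.15 SE in ERF1i (adjusted p = 0.049), each against GUSi. An RGL2-like contig (c21268_g2_i1), named after a DELLA protein that restrains seed germination in Arabidopsis, had 1.08 and 2.31 FPKM in ERF2i, 4.54 and 1.47 FPKM in ERF1i and 13.4 and 5.81 FPKM in GUSi. Lines of the same construct differed by over 2-fold here. Its log2 fold change of -2.26 ± 0.64 SE in ERF2i against GUSi (adjusted p = 0.044) had the lowest value and the highest SE of the called GRAS contigs. It ran from -2.94 to -1.55 over 14 refits, and the call was lost in 5 of them, among these summed counts (adjusted p = 0.053) and leaving out GUSi-9, ERF2i-2 or ERF2i-3. A GAI1-like contig (c15253_g1_i1) moved otherwise, with 3.78 and 5.28 FPKM in ERF2i, 1.43 and 1.77 FPKM in ERF1i and 2.38 and 3.28 FPKM in GUSi. It was called in ERF2i against ERF1i alone (log2 fold change 1.64 ± 0.41 SE, adjusted p = 0.035) and is 497 bp long; this call was lost in 8 of 14 refits. Summed over all 17 DELLA contigs, levels were 46.0 and 48.9 FPKM in ERF2i, 69.7 and 63.6 FPKM in ERF1i and 119 and 107 FPKM in GUSi. The ERF2i mean was 0.419 times the GUSi mean, and the ERF1i mean 0.589 times. These sums carry no scaling beyond the total count and contig length. Without such scaling the median log2 fold change of all contigs was -0.24 in ERF2i and -0.07 in ERF1i, each against GUSi. Both ratios therefore lie lower than they would on the scale of the tests.

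**Figure D3:**
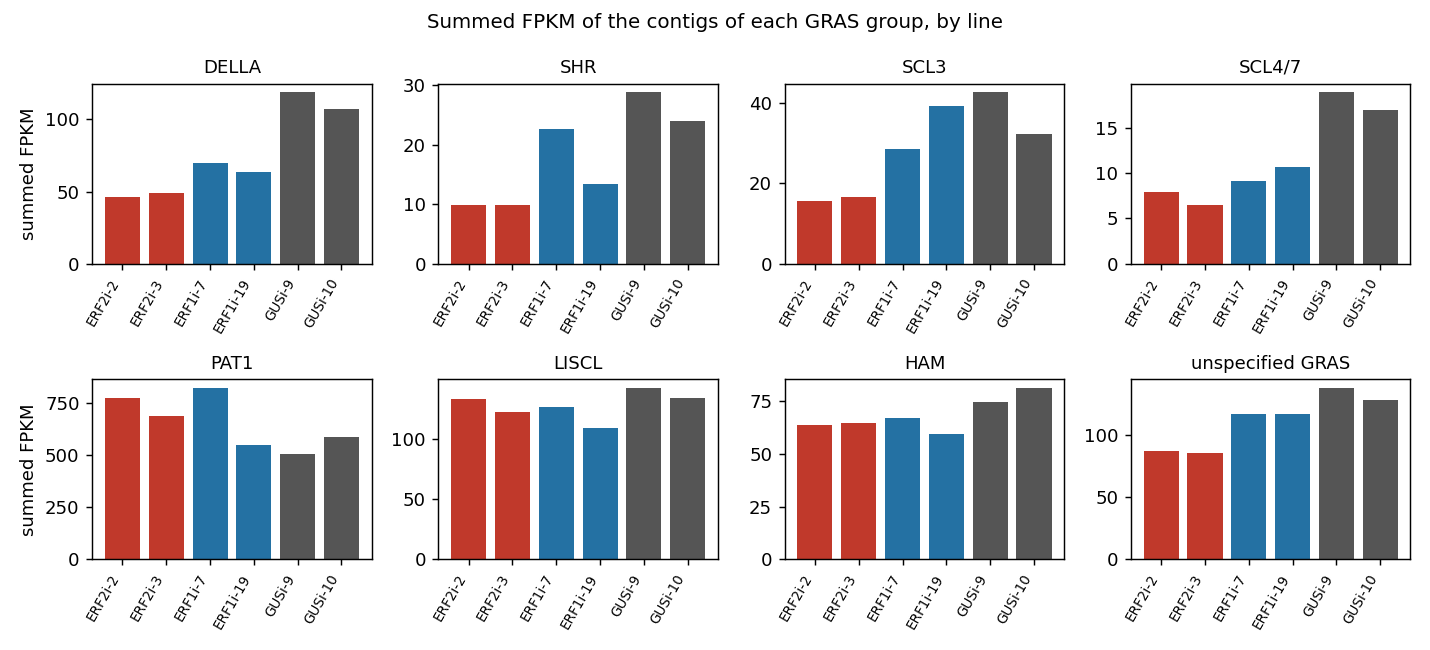
Summed FPKM of all contigs of 8 GRAS branches in each line (bars, 1 per line; ERF2i red, ERF1i blue, GUSi grey), with a separate scale starting at 0 in each panel. The DELLA, SHR and SCL4/7 sums of all ERF2i lines lie below those of all ERF1i lines, and these below all GUSi lines, while the PAT1 sum is 689 to 774 FPKM in ERF2i, against 503 to 588 FPKM in GUSi.

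Contigs named after factors of root patterning were among those that fell in ERF2i. SHORT-ROOT is made in the stele of the Arabidopsis root and moves into the next cell layer, where it activates *SCARECROW*. The long SHORT-ROOT-like contig (c25046_g2_i1) had 9.09 and 9.09 FPKM in ERF2i, 19.1 and 12.6 FPKM in ERF1i and 24.0 and 23.3 FPKM in GUSi. The constructs did not overlap, and the 2 ERF1i lines stood farther apart than the lines of the other constructs. It fell by 1.15 ± 0.19 SE on the log2 scale in ERF2i against GUSi (adjusted p = 0.0075), while the log2 fold change in ERF1i against GUSi was -0.51 ± 0.19 SE (adjusted p = 0.19). The 2 contigs described as SCARECROW itself were 213 and 321 bp long, reached at most 4 counts in a library and could not be tested. An assembly gene described as SCARECROW-like (c33075_g5) was tested and did not fall in ERF2i against GUSi. Its 3 contigs had log2 fold changes of 0.12, 0.13 and 0.0016, and their sum 0.20 ± 0.11 SE (adjusted p = 0.21, edgeR). Another contig of that description (c12303_g1_i1) was low, at 1.03 and 1.51 FPKM in ERF2i, against 4.55 and 3.13 FPKM in GUSi. Its log2 fold change of -1.35 ± 0.67 SE did not pass (adjusted p = 0.19, edgeR). A further one (c9505_g1_i1, 314 bp) was not tested and had 0.62 and 0.60 FPKM in ERF2i, against 5.92 and 2.67 FPKM in GUSi. SCL23, the closest relative of SCARECROW in Arabidopsis, acts with it in the root and the bundle sheath. The SCL23-like contig (c28682_g1_i1) had 8.02 and 6.74 FPKM in ERF2i, 12.6 and 12.1 FPKM in ERF1i and 11.99 and 13.7 FPKM in GUSi. The ERF1i and GUSi lines overlapped and both ERF2i lines lay below them. It fell in ERF2i by 0.57 ± 0.14 SE on the log2 scale against GUSi (adjusted p = 0.028) and by 0.58 ± 0.14 SE against ERF1i (adjusted p = 0.031).

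SCL3 is bound by DELLA proteins in Arabidopsis, promotes gibberellin responses and acts in the endodermis with SHORT-ROOT and SCARECROW. Both tested SCL3-like contigs fell in ERF2i against GUSi (beside 9.88% of all contigs tested). The first (c23814_g1_i1) had 4.16 and 5.04 FPKM in ERF2i, 14.3 and 23.4 FPKM in ERF1i and 23.1 and 13.7 FPKM in GUSi. The ERF1i and GUSi lines covered the same range, and ERF2i lay far below both. It fell by 1.77 ± 0.32 SE on the log2 scale against GUSi (adjusted p = 0.010) and by 1.87 ± 0.32 SE against ERF1i (adjusted p = 0.011). The second (c18239_g1_i1) had 10.4 and 10.5 FPKM in ERF2i, 13.1 and 14.7 FPKM in ERF1i and 16.6 and 17.5 FPKM in GUSi. It fell by 0.48 ± 0.11 SE in ERF2i against GUSi (adjusted p = 0.023), with the ERF1i lines between the other constructs.

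Both contigs of an SCL4-like assembly gene fell in ERF2i against GUSi. The longer contig (c32622_g1_i2) had 3.83 and 3.55 FPKM in ERF2i, 4.61 and 5.36 FPKM in ERF1i and 9.58 and 8.32 FPKM in GUSi. Lines of both *OpERF* constructs were below the controls. It fell by 1.05 ± 0.15 SE on the log2 scale in ERF2i (adjusted p = 0.0039) and by 0.78 ± 0.14 SE in ERF1i (adjusted p = 0.037), each against GUSi. The shorter contig (c32622_g1_i1) had 4.15 and 2.91 FPKM in ERF2i, 4.53 and 5.38 FPKM in ERF1i and 9.39 and 8.66 FPKM in GUSi, and fell by 1.13 ± 0.19 SE in ERF2i (adjusted p = 0.0078).

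The PAT1 branch, named after an Arabidopsis factor of phytochrome A signalling, held called contigs in both directions. All 14 of its contigs were tested in ERF2i against GUSi, of which 3 rose and 2 fell (beside 13.2% and 9.88% of all contigs tested). The median log2 fold change was -0.19 over these contigs, which come from 5 assembly genes and share reads within a gene. With counts summed over assembly genes, 3 log2 fold changes were above 0: 0.62 (c20188_g1), 0.72 (c26275_g1) and 0.98 (c31160_g1). The others were -0.27 (c28486_g1) and -0.87 (c32816_g1). The 3 that rose were the contigs of 1 SCL1 assembly gene (c31160_g1), which share reads and do not count as separate genes. Its first contig (c31160_g1_i1) had 30.4 and 29.6 FPKM in ERF2i, 25.3 and 24.9 FPKM in ERF1i and 18.5 and 16.4 FPKM in GUSi. The constructs were in the reverse of the order seen for the GA repressor DELLA contig, again with no overlap. It rose by 1.01 ± 0.10 SE on the log2 scale in ERF2i against GUSi (adjusted p = 0.0012), by 0.59 ± 0.10 SE in ERF1i against GUSi (adjusted p = 0.032), and by 0.42 ± 0.10 SE in ERF2i against ERF1i (adjusted p = 0.030). The contigs c31160_g1_i2 and c31160_g1_i3 rose by 0.86 and 0.95 in ERF2i and by 0.58 and 0.60 in ERF1i. The sum over the assembly gene had a log2 fold change of 0.98 ± 0.11 SE in ERF2i against GUSi (adjusted p = 0.0026) and 0.60 ± 0.11 SE in ERF1i against GUSi (adjusted p = 0.045). In ERF2i against ERF1i the sum did not pass (0.38 ± 0.11 SE, adjusted p = 0.056), and the call of c31160_g1_i1 there was lost in 9 of 14 refits.

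The 2 PAT1 contigs that fell belong to 1 assembly gene described as PAT1-like (c32816_g1) and had low levels. The contig c32816_g1_i2 had 1.46 and 1.48 FPKM in ERF2i, 2.20 and 3.29 FPKM in ERF1i and 3.81 and 3.66 FPKM in GUSi, and fell by 1.11 ± 0.23 SE on the log2 scale in ERF2i against GUSi (adjusted p = 0.016). For c32816_g1_i3 the values were 1.17 and 1.62 FPKM in ERF2i, 1.98 and 2.61 FPKM in ERF1i and 3.09 and 2.88 FPKM in GUSi, and it fell by 0.86 ± 0.25 SE (adjusted p = 0.046). A further PAT1-like assembly gene (c28486_g1) was split over 6 contigs of 1.40 to 4.59 FPKM, with log2 fold changes of -0.63 to -0.12 in ERF2i against GUSi and adjusted p from 0.083 to 0.72. The summed PAT1 level was 774 and 689 FPKM in ERF2i, 822 and 548 FPKM in ERF1i and 503 and 588 FPKM in GUSi, and most of it was the chitin-inducible gibberellin-responsive protein 1-like contig.

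SCL14 binds TGA factors in Arabidopsis and switches on genes of detoxification. It belongs to the LISCL branch. There 1 contig rose and 2 fell in ERF2i against GUSi, of 11 tested (beside 13.2% and 9.88% of all contigs tested). The SCL14-like contig with the highest level (c30296_g1_i1) had 66.3 and 55.0 FPKM in ERF2i, 38.2 and 36.5 FPKM in ERF1i and 44.0 and 41.5 FPKM in GUSi. ERF2i lay above the controls and ERF1i below them. It rose in ERF2i by 0.73 ± 0.12 SE on the log2 scale against GUSi (adjusted p = 0.0070) and by 0.86 ± 0.12 SE against ERF1i (adjusted p = 0.0051). Another SCL14-like contig (c25339_g2_i1) went the other way, with 10.4 and 10.5 FPKM in ERF2i, 17.3 and 16.7 FPKM in ERF1i and 21.3 and 22.6 FPKM in GUSi. It fell by 0.84 ± 0.11 SE against GUSi (adjusted p = 0.0029) and by 0.54 ± 0.11 SE against ERF1i (adjusted p = 0.018). Its companion contig c25339_g2_i2 had 11.8 and 13 FPKM in ERF2i, 17.5 and 18.0 FPKM in ERF1i and 20.4 and 20.1 FPKM in GUSi, and fell by 0.48 ± 0.11 SE in ERF2i against GUSi (adjusted p = 0.024). A contig of the same assembly component with no named branch, described as GRAS transcription factor (c25339_g1_i1), had 25.8 and 24.2 FPKM in ERF2i, 39.5 and 39.1 FPKM in ERF1i and 47.5 and 46.6 FPKM in GUSi. It fell by 0.69 ± 0.10 SE in ERF2i against GUSi (adjusted p = 0.0040) and by 0.49 ± 0.10 SE against ERF1i (adjusted p = 0.016). These 3 contigs come from 2 neighbouring groups of the assembly and may be pieces of related transcripts, which could not be settled without their sequences. Among the 3 contigs of a further SCL14-like assembly gene (c32273_g1), c32273_g1_i3 was called in ERF2i against ERF1i, with 5.39 and 5.59 FPKM in ERF2i and 4.68 and 3.52 FPKM in ERF1i (log2 fold change 0.58 ± 0.16 SE, adjusted p = 0.047), a call lost in 11 of 14 refits.

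The HAM branch keeps shoot meristems undifferentiated in Arabidopsis and is in part controlled by a conserved microRNA. Of 5 contigs tested in ERF2i against GUSi, 2 rose and 1 fell (beside 13.2% and 9.88% of all contigs tested). Both that rose belong to an SCL15-like assembly gene (c25458_g2). The contig c25458_g2_i1 had 6.65 and 6.41 FPKM in ERF2i, 4.09 and 2.77 FPKM in ERF1i and 4.14 and 4.11 FPKM in GUSi. It rose by 0.89 ± 0.21 SE on the log2 scale against GUSi (adjusted p = 0.024) and by 1.08 ± 0.21 SE against ERF1i (adjusted p = 0.016). The contig c25458_g2_i2 had 6.83 and 6.07 FPKM in ERF2i, 4.86 and 2.97 FPKM in ERF1i and 4.26 and 3.97 FPKM in GUSi, and rose by 0.87 ± 0.25 SE against GUSi (adjusted p = 0.047). An SCL27-like contig (c32004_g3_i1) had 28.9 and 30.9 FPKM in ERF2i, 35.6 and 35.5 FPKM in ERF1i and 46.4 and 47.3 FPKM in GUSi. All lines of a construct lay within a narrow range, and it fell by 0.42 ± 0.10 SE in ERF2i against GUSi (adjusted p = 0.023).

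Outside these branches, an SCL8-like contig (c25408_g1_i1) had 64.6 and 58.4 FPKM in ERF2i, 59.6 and 49.1 FPKM in ERF1i and 37.5 and 53.3 FPKM in GUSi. ERF2i lay above both controls, whose 2 lines differed, and the contig rose by 0.66 ± 0.19 SE on the log2 scale (adjusted p = 0.044). A low GRAS factor contig (c23050_g1_i1) had 1.13 and 1.16 FPKM in ERF2i, 1.91 and 1.21 FPKM in ERF1i and 3.10 and 2.43 FPKM in GUSi, and fell by 1.04 ± 0.31 SE in ERF2i against GUSi (adjusted p = 0.049). A SCARECROW-like contig with no number (c33075_g5_i4) had 8.78 and 8.13 FPKM in ERF2i, 12.4 and 15.8 FPKM in ERF1i and 9.45 and 10.3 FPKM in GUSi. It was called in ERF2i against ERF1i alone, where it fell by 0.58 ± 0.14 SE (adjusted p = 0.031). Summed over its assembly gene, whose contigs share reads, the call was lost (-0.13 ± 0.11 SE, adjusted p = 0.41). The other contigs of that assembly gene, c33075_g5_i1 and c33075_g5_i2, had log2 fold changes of -0.22 and 0.09 there and were not called.

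**Figure D4:**
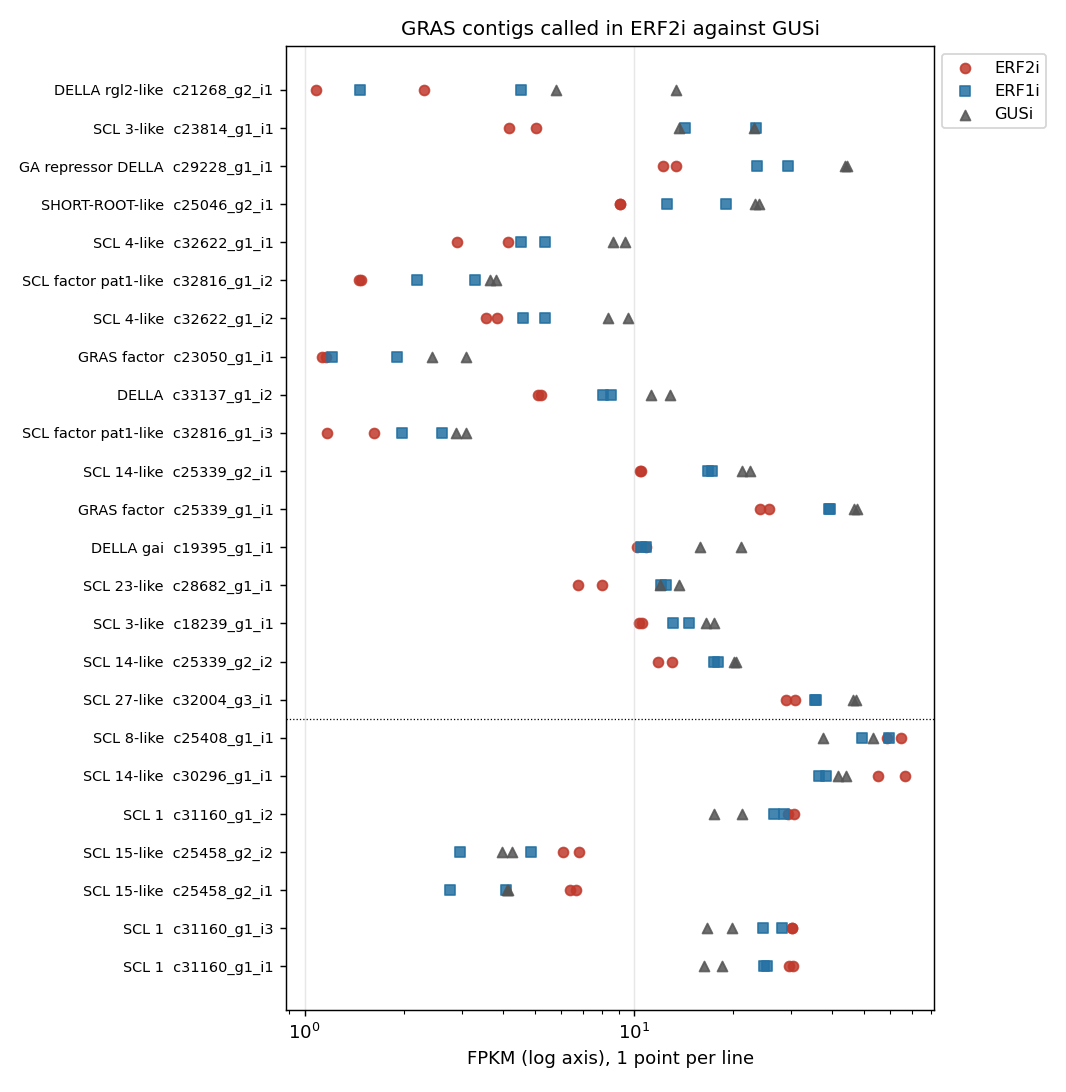
FPKM on a log axis, 1 point per line, of the 24 GRAS contigs called in ERF2i against GUSi, ordered by fold change (circles ERF2i, squares ERF1i, triangles GUSi). The 17 contigs above the dotted line fell and the 7 below it rose.

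Fewer GRAS contigs were called in ERF1i against GUSi. Of the 58, 3 rose (5.17%, beside 2.65% of all contigs tested) and 3 fell (5.17%, beside 1.4% of all contigs tested). The 3 that rose were the contigs of the SCL1 assembly gene, and the 3 that fell were the GA repressor DELLA, GAI and the longer SCL4-like contig. Both ERF1i lines lay below both GUSi lines in 29 contigs (25.2% of all contigs tested) and above them in 7 (25.4% of all contigs tested), with a median log2 fold change of -0.19 over the GRAS contigs and -0.00 over all contigs tested. Without scaling beyond the total count 1 rose and 3 fell. Each of these 6 calls had an adjusted p close to the threshold. All 6 were lost when either GUSi line or either ERF2i line was left out. In the fit of all 6 libraries, 5 GRAS contigs rose and 12 fell at an unadjusted p under 0.05 (edgeR), beside 11.5% and 9.14% of all contigs tested. With 1 library left out, the median log2 fold change over GRAS contigs ran from -0.22 (without ERF1i-7) to -0.16 (without GUSi-9).

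The ERF1i lines were also less alike. The median absolute difference between the 2 lines of a construct over the 58 contigs was 0.13 in ERF2i, 0.29 in ERF1i and 0.18 in GUSi on the log2 scale, beside 0.19, 0.24 and 0.19 over all contigs tested. The chitin-inducible gibberellin-responsive protein 1-like and SHORT-ROOT-like contigs were among those that were higher in ERF1i-7 than in ERF1i-19. The SCL3-like contig c23814_g1_i1 was lower in ERF1i-7 (14.3 FPKM) than in ERF1i-19 (23.4 FPKM). Its GUSi lines stood about as far apart (23.1 and 13.7 FPKM).

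Set directly against ERF1i, 5 GRAS contigs rose (8.62%, beside 10.6% of all contigs tested) and 7 fell (12.1%, beside 9.01% of all contigs tested) in ERF2i. Both shares were near those of all contigs. Those that fell were the GA repressor DELLA, the second contig of c33137_g1, 1 SCL3-like, the SCL23-like, 1 SCL14-like and 2 contigs with no named branch. Those that rose were the GAI1-like contig, 2 SCL14-like, 1 SCL15-like and 1 SCL1 contig. Both ERF2i lines lay below both ERF1i lines in 23 contigs (31.7% of all contigs tested) and above them in 17 (32.4% of all contigs tested), and without scaling beyond the total count 3 rose and 12 fell. Calls changed with the libraries used, and nearly all were lost with either ERF2i line left out. In the fit of all 6 libraries, 10 GRAS contigs rose and 11 fell at an unadjusted p under 0.05 (edgeR), beside 18.2% and 17.3% of all contigs tested. With 1 library left out, the median log2 fold change over GRAS contigs ran from -0.18 (without ERF2i-3) to -0.07 (without ERF1i-7).

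Of the 24 calls in ERF2i against GUSi, 7 were made again in all 14 refits. They were the GA repressor DELLA (c29228_g1_i1), the second contig of c33137_g1, the SCL1 contigs c31160_g1_i1 and c31160_g1_i3, the longer SCL4-like contig, and the SCL14-like and GRAS factor contigs c25339_g2_i1 and c25339_g1_i1. For c29228_g1_i1 the log2 fold change ran from -1.78 to -1.51 and for c31160_g1_i1 from 0.75 to 1.10 over these refits. The other 17 calls were each lost in 1 to 8 refits, and those in ERF2i against ERF1i in 1 to 11. None of the 24 changed direction in any refit that tested it.

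**Figure D5:**
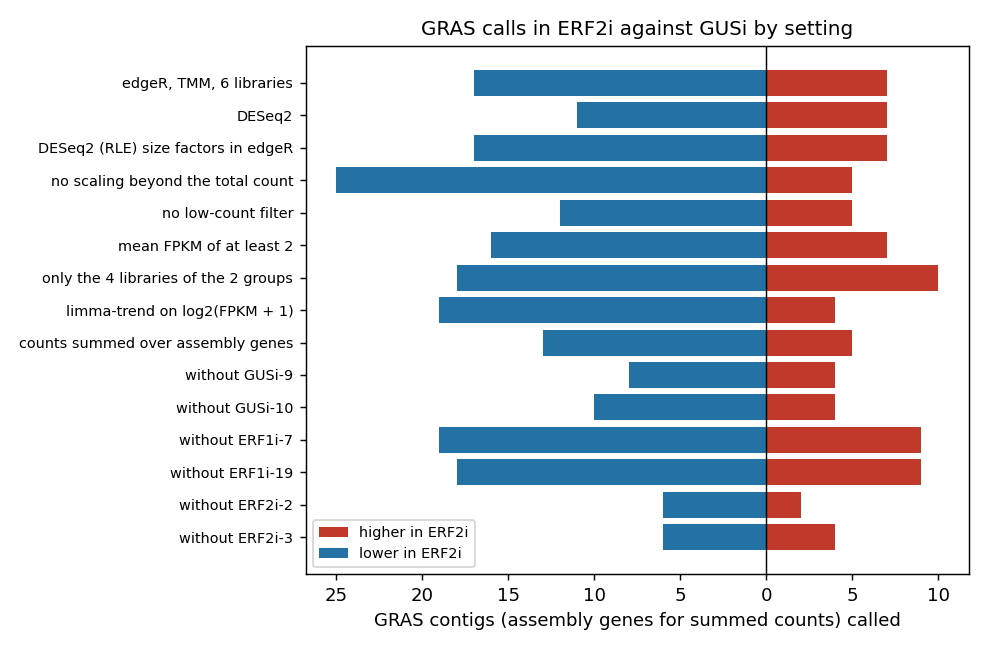
Number of GRAS contigs called higher (right, red) and lower (left, blue) in ERF2i against GUSi under each of 15 settings; for summed counts the units are assembly genes. The lower calls are more numerous than the higher calls in every setting, by 17 to 7 in the fit used throughout and by 6 to 2 without ERF2i-2.

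Genes that act with GRAS proteins were counted from lists drawn from the deposited descriptions. INDETERMINATE-domain zinc fingers such as JACKDAW and MAGPIE bind SHORT-ROOT, SCARECROW and DELLA proteins in Arabidopsis. Of 8 tested, 1 rose (12.5%, beside 13.2% of all contigs tested) and 4 fell (beside 9.88% of all contigs tested) in ERF2i against GUSi, with a median log2 fold change of -0.64. A MAGPIE-like contig (c22948_g1_i2) had 1.89 and 1.90 FPKM in ERF2i, 3.42 and 2.13 FPKM in ERF1i and 6.64 and 5.19 FPKM in GUSi, and fell by 1.41 ± 0.26 SE (adjusted p = 0.011). The one that rose is also MAGPIE-like (c30726_g1_i2), with 24.4 and 24.3 FPKM in ERF2i, 16.4 and 16.5 FPKM in ERF1i and 18.6 and 19.9 FPKM in GUSi (log2 fold change 0.57 ± 0.10 SE, adjusted p = 0.010). Of 4 tested D-type cyclins, the kind of cell cycle gene that SHORT-ROOT and SCARECROW activate in Arabidopsis, 1 fell (beside 9.88% of all contigs tested). This was a D6-type contig (c21997_g1_i1) with 2.17 and 1.73 FPKM in ERF2i, 3.14 and 2.80 FPKM in ERF1i and 4.43 and 4.65 FPKM in GUSi (log2 fold change -0.99 ± 0.21 SE, adjusted p = 0.016).

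Among 31 tested contigs of gibberellin synthesis, breakdown and perception, 7 rose (22.6%, beside 13.2% of all contigs tested) and 3 fell (9.68%, beside 9.88% of all contigs tested) in ERF2i against GUSi, so that the share that fell was near that of all contigs. The list as a whole did not shift upward: its median log2 fold change was -0.35, beside -0.01 over all contigs tested. A gibberellin 2-oxidase contig (c18730_g1_i1), an enzyme of a kind that inactivates gibberellins, had 138 and 129 FPKM in ERF2i, 71.5 and 75.0 FPKM in ERF1i and 63.1 and 61.8 FPKM in GUSi. It rose by 1.32 ± 0.10 SE on the log2 scale against GUSi (adjusted p = 0.00057) and by 1.02 ± 0.10 SE against ERF1i (adjusted p = 0.0015). Contigs of ent-kaurenoic acid oxidase, which acts earlier in synthesis, were higher in both *OpERF* constructs: c18507_g1_i2 had 7.86 and 4.83 FPKM in ERF2i, 9.60 and 15.5 FPKM in ERF1i and 0.73 and 1.22 FPKM in GUSi. It rose by 2.90 ± 0.44 SE in ERF2i (adjusted p = 0.0054) and by 3.72 ± 0.42 SE in ERF1i (adjusted p = 0.013). A gibberellin 3 beta-hydroxylase contig (c19355_g2_i1), named for the step that makes active gibberellin, had 2.15 and 1.29 FPKM in ERF2i, 5.74 and 6.50 FPKM in ERF1i and 6.46 and 8.11 FPKM in GUSi, and fell by 1.85 ± 0.30 SE in ERF2i against GUSi (adjusted p = 0.0068).

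Of 25 tested contigs of the phytochrome and PIF list, 4 rose (beside 13.2% of all contigs tested) and 3 fell (beside 9.88% of all contigs tested) in ERF2i against GUSi, shares near those of all contigs. PIF factors are bound and held back by DELLA proteins in Arabidopsis. The 4 that rose were 2 PIF1-like factors and 2 contigs of 1 phytochrome C gene. The PIF1-like contig c17015_g1_i1 had 13.6 and 12.6 FPKM in ERF2i, 4.42 and 6.60 FPKM in ERF1i and 3.04 and 2.84 FPKM in GUSi (log2 fold change 2.37 ± 0.26 SE, adjusted p = 0.0017). Of the 3 that fell, 2 were contigs of a DNA helicase that shares the letters PIF1 and is known from genome maintenance, and the other was phytochrome E. Of 7 tested TGA factor contigs 2 fell (beside 9.88% of all contigs tested), both of 1 TGA7 assembly gene. The contig c17844_g2_i1 had 1.63 and 0.90 FPKM in ERF2i, 3.00 and 1.24 FPKM in ERF1i and 8.52 and 7.02 FPKM in GUSi (log2 fold change -2.38 ± 0.44 SE, adjusted p = 0.011). Of 39 tested contigs of the endodermis and Casparian strip list, 5 rose (12.8%, beside 13.2% of all contigs tested) and 1 fell (2.56%, beside 9.88% of all contigs tested) in ERF2i against GUSi. The share that rose was near that of all contigs. All 6 are CASP-like proteins, a family that is wider than the endodermis, and c25591_g1_i2 had the highest rise, with 14.8 and 19.3 FPKM in ERF2i, 4.14 and 5.59 FPKM in ERF1i and 2.65 and 2.70 FPKM in GUSi (log2 fold change 2.89 ± 0.24 SE, adjusted p = 0.00075). For strigolactone and symbiosis signalling 2 contigs were tested in ERF2i against GUSi, with log2 fold changes of -0.72 (c13091_g1_i1, adjusted p = 0.27) and 0.23 (c12650_g1_i1, adjusted p = 0.19).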

How the data were processed

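Per the paper and the submitters' processing notes, reads of strand-specific, paired-end Illumina libraries were cleaned, mapped with Bowtie2 2.0 to a *de novo* assembly and quantified per contig with RSEM. Whether strand entered the counting, and the RSEM version, is not given in the sources used here. Deposited are, for each contig and library, an expected count and an FPKM per contig and library. The authors' annotation table gives descriptions, best hits and the same FPKM; a difference of at most 0.006 was taken as equal. Descriptions were transferred by similarity and define the family and its branches.

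Expected counts were rounded (1 was not whole). Contigs with low counts were removed by edgeR's filter (minimum count 10, total 15), and edgeR 4.0.16 in R 4.3.3 was fitted to 6 libraries in 3 groups, with TMM scaling (3 residual degrees of freedom, biological coefficient of variation 14.7%). Fold changes are on the log2 scale. Alternatives used DESeq2 1.42.0 and limma 3.58.1 (log2(FPKM + 1)), other scalings and filters, summed assembly genes, a minimum log2 fold change of 1, and leaving out single libraries; figures used matplotlib 3.10.9. The script was tested on simulated data. Contigs named were those called in any comparison, the 10 most abundant, and up to 2 called contigs per list, with some exceptions chosen after their values were seen: uncalled contigs of the same assembly genes, further SCARECROW-like contigs, the ent-kaurenoic acid oxidase and gibberellin 3 beta-hydroxylase contigs and those of the closing section. The members, branches and lists were chosen with earlier results of these data known. Reads are not independent molecules, and at these depths contigs with few counts could not be tested. Correlations between contigs were left out, since the 6 libraries fall into 3 groups. Contig sequences, and the paper's qRT-PCR and metabolite data, were not analysed here.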

Additional observations from a re-analysis of the deposited data

Results flagged for a closer look

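In 4 GRAS contigs both ERF2i lines lay on one side of both GUSi lines and both ERF1i lines on the other, in counts normalised by library size and TMM, and the difference between the *OpERF* constructs was tested directly with edgeR. In each of them ERF2i was above and ERF1i below the controls. How many of all contigs tested show this pattern was not counted. Against GUSi, ERF1i passed in none of them (adjusted p = 0.22 to 0.61, edgeR), and ERF2i only in c30296_g1_i1. In FPKM the ERF2i and GUSi lines of c32273_g1_i2 and c32273_g1_i3 overlapped. The log2 fold change in ERF2i against ERF1i was 1.64 ± 0.41 SE (adjusted p = 0.035) for the GAI1-like contig c15253_g1_i1. It was 0.86 ± 0.12 SE (adjusted p = 0.0051) for the SCL14-like contig c30296_g1_i1. For c32273_g1_i2 and c32273_g1_i3, SCL14-like contigs of 1 assembly gene that share reads, it was 0.57 ± 0.16 SE (adjusted p = 0.051) for the first and 0.58 ± 0.16 SE (adjusted p = 0.047) for the second. The contig c15253_g1_i1 is short and low, while c30296_g1_i1 is among the 10 most abundant members. The contigs were picked for this pattern in the same libraries, so the direct comparison does not test it independently. The calls of c15253_g1_i1 and c32273_g1_i3 were lost in 8 and 11 of 14 refits, DESeq2 among them, and that of c30296_g1_i1 in 1, without ERF2i-2.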

How the results depend on the processing

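Counts of GRAS calls, higher and lower, depended on the setting. In ERF2i against GUSi (7 and 17) they were 7 and 11 with DESeq2, 4 and 19 with limma-trend, 1 and 8 with a minimum log2 fold change of 1 in either direction, 5 and 25 without scaling, 5 and 12 without the low-count filter, and 10 and 18 with only the 4 libraries compared. In ERF1i against GUSi (3 and 3) DESeq2 also called 3 and 3, against 1 and 3 without scaling, 1 and 2 assembly genes from summed counts, and 0 and 0 without the low-count filter (5 and 13 at an unadjusted p under 0.05, edgeR), with the 4 libraries compared (5 and 9, edgeR), with limma-trend (4 and 16) and with that minimum. In ERF2i against ERF1i (5 and 7) they were 2 and 4 with DESeq2 and without the low-count filter, 3 and 12 without scaling, 3 and 8 with limma-trend, and 2 and 1 with that minimum. Leaving out 1 library gave 2 to 9 higher and 6 to 19 lower calls in ERF2i against GUSi, 0 to 2 and 0 to 6 in ERF1i against GUSi, and 0 to 9 and 0 to 7 in ERF2i against ERF1i; with a lone line in a construct, its spread was taken from the others. Calls over all contigs moved too. In ERF2i against GUSi 4393 rose and 3293 fell in the fit used. These were 3352 and 2312 with DESeq2, 2754 and 6407 with limma-trend, and 2932 and 7331 without scaling. With limma-trend the median log2 fold change was -0.43 over GRAS contigs and -0.20 over all contigs. In ERF1i against GUSi, 11.5% of all contigs rose and 9.14% fell at an unadjusted p under 0.05 in the fit used (edgeR). The cause of these changes was not tested.

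Among the contigs named, 9 values changed sign, and no called one did. Without scaling and with limma-trend, c19395_g1_i1 in ERF2i against ERF1i was -0.027 and -0.023 (0.13 in the fit used), and c32273_g1_i3 in ERF2i against GUSi was -0.055 and -0.044 (0.18 in the fit used). With 1 library left out, c23814_g1_i1 in ERF1i against GUSi ran from -0.29 (without ERF1i-19) to 0.51 (without GUSi-9), with -0.22 without GUSi-10, and c25458_g2_i1 from -0.51 (without ERF1i-7) to 0.063 (without ERF1i-19). In ERF2i against ERF1i, c21268_g2_i1 ran from -1.34 (without ERF2i-3) to 0.36 (without ERF1i-7), and c23050_g1_i1 from -0.59 (ERF1i-19 left out) to 0.078 (ERF1i-7 left out). Another 189 values lost their call, 14 gained one and 862 kept direction and call. The 6 calls in ERF1i against GUSi were each lost in 7 to 11 of 14 refits. No paired analysis was possible because clone numbers are not shared between constructs.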

Other observations

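GRAS proteins of symbiosis, NSP1 and NSP2, have descriptions that do not name the family. Among 9 contigs with such names 4 were tested, and edgeR called none of them against GUSi, where 1 of the 4 in ERF2i and 3 of the 4 in ERF1i had an unadjusted p under 0.05. One of the 4 is described as protein pat1 homolog 1-like (c32738_g3_i1), a name of an mRNA decay factor and not of the GRAS protein PAT1; it was called in ERF2i against ERF1i (log2 fold change 0.41 ± 0.10 SE, adjusted p = 0.036). A contig described as nodulation-signaling pathway 2 (c23303_g1_i1), chosen after its values were seen, had 0.25 and 0.24 FPKM in ERF2i, 0.96 and 0.08 FPKM in ERF1i and 5.16 and 1.30 FPKM in GUSi. Its log2 fold change in ERF2i against GUSi was -3.43 ± 1.05 SE (unadjusted p = 0.013 and adjusted p = 0.055, edgeR). The nodulation-signaling pathway 1 contig (c26810_g1_i1) had 5.90 and 5.42 FPKM in ERF2i, 3.95 and 2.28 FPKM in ERF1i and 9.42 and 5.90 FPKM in GUSi, with a log2 fold change of -1.22 ± 0.30 SE in ERF1i against GUSi (unadjusted p = 0.0050 and adjusted p = 0.077, edgeR). A contig whose best hit, though not its description, is an SCL32 protein of grapevine (c42285_g1_i1) had 2.13 and 2.09 FPKM in ERF2i, 5.89 and 2.55 FPKM in ERF1i and 8.07 and 3.40 FPKM in GUSi.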
